A study of Homo sapiens with 6 samples.

Results

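The transcription factor p53 is held low in unstressed cells by the ubiquitin ligase MDM2, is stabilised when DNA damage kinases such as ATM and the checkpoint kinases phosphorylate it, and then switches on genes for cell cycle arrest, DNA repair, apoptosis and metabolic adjustment. A set of 30 of its target genes was followed here by name, leaving out those of the BTG, BCL2, GADD45 and SESN2 families. Every one of the 30 symbols was found among the 60671 Ensembl gene identifiers of the files, and 27 of them passed edgeR's filter on low counts. The genes lie on 14 chromosomes, so no single locus carries the set.

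The samples were bulk RNA-seq libraries of the human β cell line EndoC-βH1, with the genotype label WT. The line was made from pancreas with SV40 large T antigen under the insulin promoter, and large T antigen binds p53 and blocks its activity as well as binding the RB family. Both groups therefore carry it. The 3 DMSO samples received the vehicle, and the 3 AZD7762 samples received 1 µM AZD7762, a competitive inhibitor of CHEK1 and CHEK2, during a starvation of 1 h at 0.5 mM glucose and a stimulation of 1 h. The study's kinase profiling at 1 µM also found other reported kinase targets of the compound inhibited. The stimulation used 0.5 or 20 mM glucose, and which of these a given library received is not stated. The labels do not say whether replicates came from separate cultures, so that the p-values measure only the spread between these samples.

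The libraries held 20486391 to 29402440 counts on genes, with a median of 26921225 in the DMSO group and 21503144 in the AZD7762 group. A count of 3, taken as the floor of detection, corresponded to 0.102 to 0.144 CPM (counts relative to the library total, scaled by TMM factors), a limit that covers counting error only. The β cell label was checked against 16 markers, of which 15 reached a mean of 10 CPM. The exception was SLC2A2, a glucose transporter gene, at 1.22 to 1.77 CPM. Of 16 matched markers of other pancreatic, stromal and blood cells, 5 reached that mean under DMSO, namely SST, KRT19, CPA1, HHEX and COL1A1. The acinar markers PRSS1 and CELA3A had no count in any library. CPA1, also an acinar marker, had 21.0 to 22.6 CPM under DMSO and 24.7 to 27.5 CPM under AZD7762, without overlap. The summed level of these 16 was 279.2 to 313 CPM under DMSO and 329.3 to 358.2 CPM under AZD7762, most of it from the somatostatin gene SST (202 to 227 CPM and 242 to 265 CPM), and the part of this shift in the results was not tested. Mitochondrial genes took 1.57 to 2.13% of the counts with DMSO and 2.26 to 2.63% with AZD7762, without overlap, and the part of this in the results was not tested either.

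A p53 binding site is built from 2 decamers, each with a central C, an A or T pair, and a G. Matches of 20 bases to this p53 consensus, without a spacer, with both centres intact and at most 2 mismatches, were looked for within 3 kb of the start of the principal transcript in GRCh37. The consensus is its own reverse complement, so both strands were covered. Of 29 members with such a window (the annotation marks no principal transcript for FAS), 10 held a match (34.5%), against 2.86% of 19760 protein-coding genes. With at most 1 mismatch the counts were 4 of 29 (13.8%) and 0.501%. The members were picked as known p53 targets, so these higher shares may follow from that choice and are not a result of the treatment data. The matches shown here are those of the arrest gene CDKN1A, of ZMAT3 and CCNG1, which were among the closest, and of 4 other members. Capitals mark bases that fit the consensus and lower case marks those that do not, each read 5′ to 3′ on the strand of its gene.
CDKN1A, upstream of its principal transcript, chr6:36644226-36644245, plus strand: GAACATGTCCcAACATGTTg
ZMAT3, intron 1, chr3:178787976-178787995, minus strand: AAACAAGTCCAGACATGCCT
CCNG1, intron 1, chr5:162864932-162864951, plus strand: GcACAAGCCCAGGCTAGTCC
AEN, upstream, chr15:89164537-89164556, plus strand: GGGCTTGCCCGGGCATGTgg
CMBL, intron 1, chr5:10307696-10307715, minus strand: AcACAAGCCCAcACAAGCCC
SPATA18, intron 1, chr4:52918123-52918142, plus strand: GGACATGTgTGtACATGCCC
EDA2R, intron 1, chrX:65858405-65858424, minus strand: GGGCAAGTCaGGGCTTGTgT
The ZMAT3 match was the only one of a member without a mismatch, and 0.081% of all genes held one. FUCA1, RRM2B and TNFRSF10B held a match as well, and CCNG1 held another one, with 2 mismatches, in intron 2. MDM2 held none at these settings. A match describes the sequence and not binding in these cells.

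None of the 27 members tested rose or fell with AZD7762, taking as called a Benjamini-Hochberg adjusted p under 0.05 over all genes (edgeR, quasi-likelihood test). Across all 17649 genes tested, 0.708% were called, 0.357% as higher and 0.351% as lower. The count was also 0 with DESeq2, with limma-voom and with edgeR's likelihood ratio test, and 1 member, TP53INP1, had an unadjusted p under 0.05, on the lower side, where 9.68% of all genes did (4.43% higher and 5.25% lower). The log2 ratio of AZD7762 to DMSO, the fitted log2 fold change, had a median over the members of -0.033, beside 0.0076 over all genes tested, and the values ran from -0.53 for FAS to 0.15 for SPATA18. FAS alone passed 0.5 in size, as 3.74% of all genes did. Of the 27, 10 were higher and 17 lower, and 52.4% of all genes were higher. Summed over the 30 members, the level was 1353, 1348 and 1343 CPM in DMSO replicates 1, 2 and 3 and 1341, 1346 and 1330 CPM in the AZD7762 replicates. The AZD7762 mean was 99.3% of the DMSO mean, and the groups overlapped. This held after TMM scaling, whereas of the unscaled library totals the members took 0.136 to 0.137% with DMSO and 0.132% in each AZD7762 library, without overlap. In bulk RNA, fewer cells and less RNA per cell cannot be told apart in any of these levels.

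**Figure D1:**
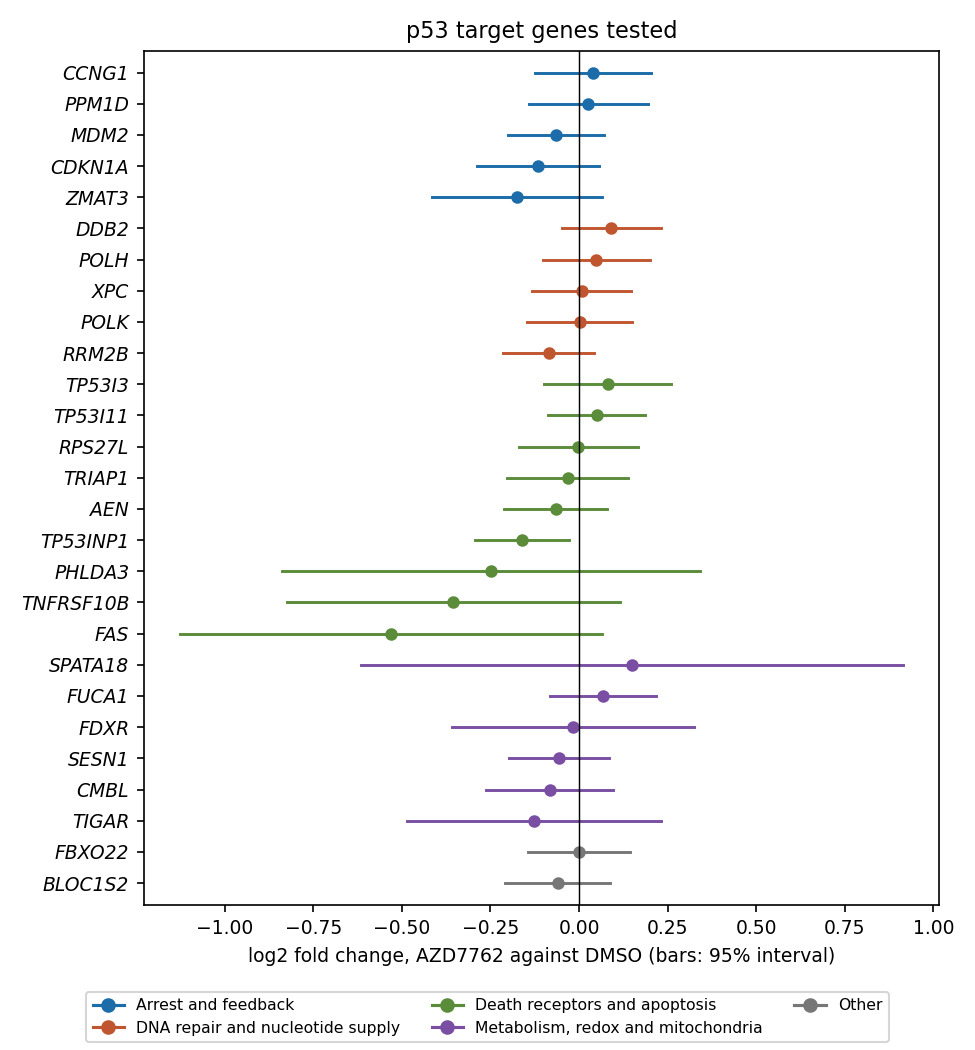
Log2 fold change of AZD7762 against DMSO (x axis) for the 27 p53 target genes tested, grouped by role (colour), with points for the fitted value and bars for its 95% interval from 3 samples in each group. The intervals of 26 genes include 0, that of TP53INP1 ends just below it, and the widest are those of the thinly counted SPATA18, FAS, PHLDA3 and TNFRSF10B.

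The width of the intervals set what could be seen. For 23 of the 27 members the 95% interval lay within a log2 ratio of 0.5 in either direction, a rise of 41.4% at that bound, and for 16 it lay within 0.25, a rise of 18.9%. The 4 outside the wider bound were FAS, TNFRSF10B, PHLDA3 and SPATA18. Of the members tested, 21 had at least 10 CPM under DMSO, and their standard errors lay between 0.0587 and 0.11. Their log2 ratios ran from -0.17 to 0.091, and the lowest interval bound among them was -0.41 and the highest 0.26. For the 6 members under 10 CPM the standard errors were 0.157 to 0.352, so that differences as small as those that the better counted members could show were not detectable at this depth.

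**Figure D2:**
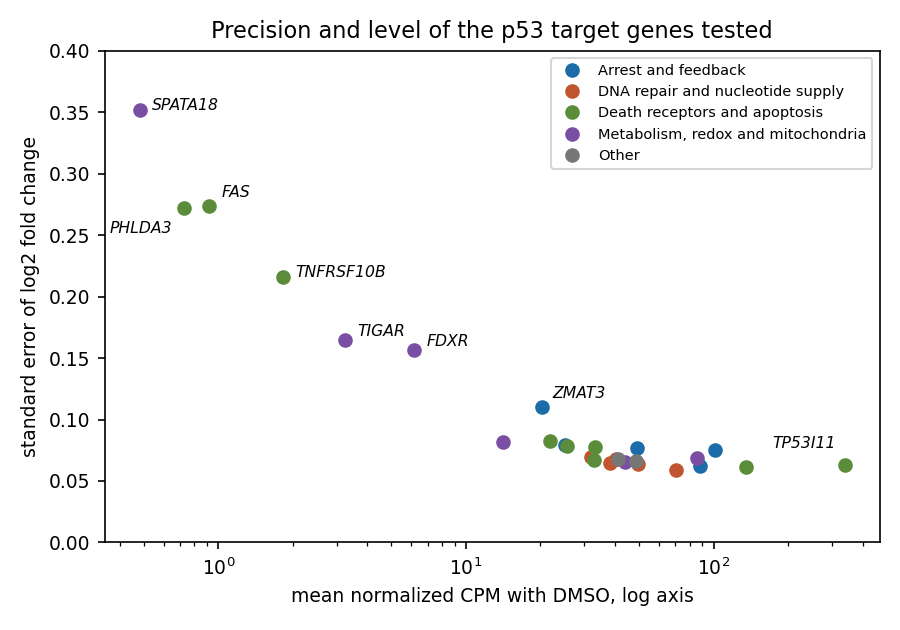
Standard error of the log2 fold change (y axis) against the mean normalized CPM under DMSO (x axis, log) for the 27 p53 target genes tested, coloured by role. Errors lie between 0.0587 and 0.11 for the 21 genes at 10 CPM or more and rise to 0.352 for SPATA18.

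The cell cycle and feedback genes showed the set's standard readouts. CDKN1A (ENSG00000124762, chromosome 6, 36644237 to 36655114 in GRCh37) encodes the cyclin-dependent kinase inhibitor p21, and its site is printed above. Its level was 26.2, 23.8 and 25.4 CPM in DMSO replicates 1 to 3 and 24.6, 21.5 and 23.5 CPM in AZD7762 replicates 1 to 3. The groups overlapped, with means of 25.2 ± 1.21 and 23.2 ± 1.57 CPM (SD, n = 3 in each), and the log2 ratio was -0.12 with a 95% interval from -0.29 to 0.055 (edgeR, adjusted p = 0.685). MDM2 (ENSG00000135679, chromosome 12, 69201957 to 69239324), the ligase that p53 induces to limit itself, had 92.4, 89.8 and 82.5 CPM under DMSO and 82.9, 87.7 and 82.9 CPM under AZD7762. Its groups overlapped too, and its log2 ratio was -0.064 (interval -0.20 to 0.072, edgeR, adjusted p = 0.797). Of the exons of MDM2, 11.1% are shared with a gene on the other strand and 5.29% with one on the same strand, and as it is not stated whether reads were counted by strand, its counts are less certain than those of CDKN1A. A rise of MDM2 or CDKN1A by more than 18.9% lay outside both intervals.

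ZMAT3, an RNA-binding protein gene whose match to the consensus was complete, had the lowest log2 ratio of this role. Its level was 19.3, 24.0 and 17.4 CPM under DMSO and 17.7, 17.3 and 19.04 CPM under AZD7762, so that DMSO replicate 2 stood above the other 5 samples. The log2 ratio was -0.17 (standard error 0.11, edgeR, adjusted p = 0.656), and without DMSO replicate 2 it was -0.039. Cyclin G1, encoded by CCNG1, recruits a phosphatase to MDM2. CCNG1 had the highest value of the role, with 108.6, 99.0 and 95.7 CPM under DMSO and 107.6, 111.0 and 93.4 CPM under AZD7762. The log2 ratio was 0.040 (edgeR, adjusted p = 0.907), with samples of both groups interleaved. PPM1D, the phosphatase that ends the damage signal and acts on p53, ATM and the checkpoint kinases, had 49.2 ± 2.42 CPM under DMSO and 50.2 ± 4.85 CPM under AZD7762, a difference whose sign turned when library totals alone were used. PLK5, a polo-like kinase gene without a full kinase domain, was not tested, having 4 counts in DMSO replicate 2 and 0 in every other library.

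**Figure D3:**
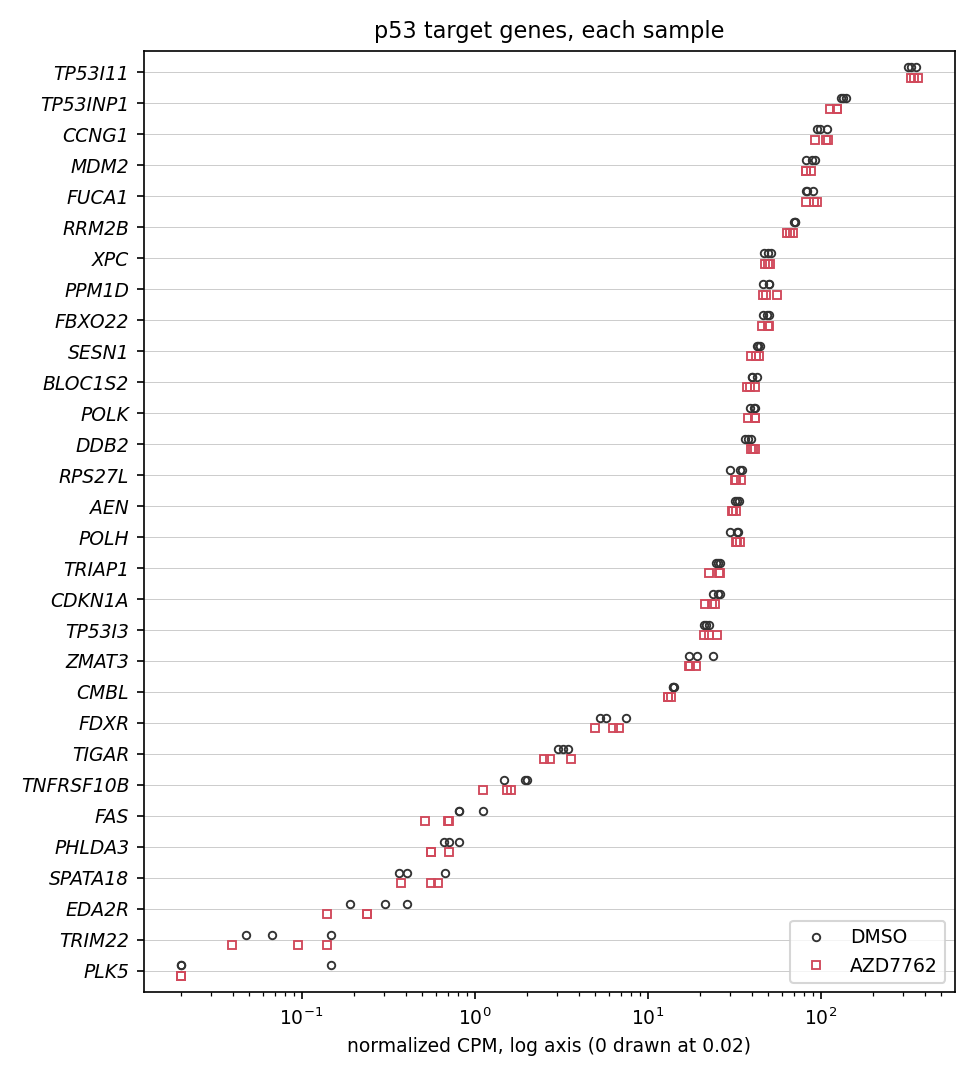
Normalized CPM (x axis, log) of each of the 30 p53 target genes in every sample, with circles for the 3 DMSO samples and squares for the 3 AZD7762 samples, ordered by the DMSO mean. Levels run from 0 or near 0 for PLK5 and TRIM22 to above 300 CPM for TP53I11, and for most genes the circles and squares share one range.

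DNA repair and nucleotide supply genes were well counted. DDB2, which recognises ultraviolet damage, had 36.7, 39.7 and 38.2 CPM under DMSO and 41.6, 39.8 and 40.7 CPM under AZD7762. It was the 1 member whose AZD7762 samples all lay above the DMSO samples, although AZD7762 replicate 2 and DMSO replicate 2, at 39.8 and 39.7 CPM, were nearly equal. Its log2 ratio was 0.091 (interval -0.049 to 0.23, edgeR, adjusted p = 0.698). RRM2B, the ribonucleotide reductase subunit that p53 induces to supply deoxynucleotides, had 70.0, 71.5 and 70.9 CPM under DMSO and 66.5, 69.7 and 64.0 CPM under AZD7762. All 3 AZD7762 samples lay below the DMSO samples, and the log2 ratio was -0.086 (interval -0.21 to 0.042, edgeR, adjusted p = 0.688). XPC, the other damage sensor of nucleotide excision repair, had a log2 ratio of 0.0071. The translesion polymerase genes POLH and POLK, which copy across damaged bases, had 0.049 and 0.0021. Genes on the other strand cover 24.6% of the exons of XPC, and the signs of XPC and POLK turned under other scalings. No gene of this role was called, where 0.708% of all genes were. Of the 5, 0 had an unadjusted p under 0.05, where 9.68% of all genes did, and 5 genes are too few to set against these shares.

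Among the death receptor and apoptosis genes, TP53INP1 came closest to a difference. It encodes a nuclear and autophagy protein that helps p53 promote cell death, and lies on chromosome 8 (ENSG00000164938, 95938200 to 95961606). Its level was 134.3, 140.1 and 131.0 CPM in DMSO replicates 1 to 3 and 113.4, 124.9 and 124.3 CPM in AZD7762 replicates 1 to 3. The AZD7762 samples lay below all DMSO samples, at 135 ± 4.62 and 121 ± 6.48 CPM (SD, n = 3 in each), and the mean was 89.5% of that with DMSO. The log2 ratio was -0.16 (standard error 0.0612, interval -0.29 to -0.028, unadjusted p = 0.0215), and the adjusted p of 0.408 in edgeR's test did not pass the threshold. Without DMSO replicate 2 or without AZD7762 replicate 1, TP53INP1 had no unadjusted p under 0.05.

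The receptors were scarce. FAS, a receptor that starts the extrinsic death pathway, had 33, 22 and 17 counts with DMSO and 13, 15 and 15 counts with AZD7762. As normalized CPM these were 1.12, 0.809 and 0.815 against 0.517, 0.713 and 0.703, so the groups did not overlap. The log2 ratio was -0.53 with an interval from -1.13 to 0.065 (edgeR, adjusted p = 0.573), and without DMSO replicate 1 it was -0.35. A gene on the other strand covers 25.7% of the exons of FAS. TNFRSF10B, the TRAIL receptor DR5, had 58, 40 and 42 counts with DMSO and 28, 34 and 33 with AZD7762. As normalized CPM these were 1.96, 1.47 and 2.01 against 1.11, 1.62 and 1.55, so the groups overlapped. The log2 ratio was -0.35 (interval -0.82 to 0.11, edgeR, adjusted p = 0.642), and -0.20 without AZD7762 replicate 1. EDA2R, the receptor of ectodysplasin A2, was not tested and had 3 to 11 counts in a library.

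Genes acting inside the cell in this role were mostly level. TP53I3, a quinone oxidoreductase, had the highest value of the role, with 21.1, 21.8 and 22.5 CPM under DMSO and 25.2, 21.2 and 22.7 CPM under AZD7762. AZD7762 replicates 1 and 3 lay above the DMSO range and replicate 2 within it, and the log2 ratio was 0.081 (edgeR, adjusted p = 0.808), or 0.0025 without AZD7762 replicate 1. AEN, an exonuclease gene, and TRIAP1, which protects against apoptosis, had -0.066 and -0.032. The ribosomal protein-like gene RPS27L and TP53I11 had log2 ratios of -0.0020 and 0.049. PHLDA3, an inhibitor of AKT signalling that is known as a tumour suppressor of islet cells, was counted thinly, at 0.729 ± 0.0780 CPM under DMSO and 0.611 ± 0.0885 CPM under AZD7762, with a log2 ratio of -0.25 (interval -0.84 to 0.34, edgeR, adjusted p = 0.834). Another gene on the same strand shares 18.4% of the exons of PHLDA3. Of the 9 genes of the role that were tested, 7 were lower and 2 higher, with a median of -0.066.

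Of the metabolic, redox and mitochondrial genes, 2 of 6 were higher and 4 lower. SPATA18, which takes part in mitochondrial quality control, had 0.406, 0.368 and 0.671 CPM under DMSO and 0.557, 0.618 and 0.375 CPM under AZD7762. Its log2 ratio of 0.15 had an interval from -0.62 to 0.91 (edgeR, adjusted p = 0.923) and turned to -0.012 without DMSO replicate 2. TIGAR, a fructose bisphosphatase that directs glucose into the pentose phosphate pathway, had 3.45, 3.24 and 3.02 CPM under DMSO and 3.62, 2.52 and 2.72 CPM under AZD7762. AZD7762 replicate 1 was the highest of the 6 samples and the other AZD7762 replicates the lowest, and the log2 ratio was -0.13 (interval -0.49 to 0.23, edgeR, adjusted p = 0.858). It was -0.32 without AZD7762 replicate 1 and -0.033 without AZD7762 replicate 2. Another gene on its strand shares 18.1% of its exons. CMBL, a hydrolase gene, was lower in all AZD7762 samples, at 13.2, 13.7 and 13.1 CPM against 14.2, 14.01 and 14.1 CPM, a log2 ratio of -0.083 (edgeR, adjusted p = 0.799). SESN1, a sestrin that restrains mTORC1, had -0.057. FDXR, the mitochondrial ferredoxin reductase, and FUCA1, a lysosomal fucosidase, had -0.017 and 0.067.

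The remaining members were FBXO22, a subunit of a ubiquitin ligase, BLOC1S2, a subunit of complexes that form and move lysosome-related organelles, and TRIM22, an interferon-induced ubiquitin ligase. FBXO22 had 50.2, 46.3 and 49.1 CPM under DMSO and 49.7, 50.1 and 45.6 CPM under AZD7762, a log2 ratio of -0.00094. BLOC1S2 had 42.8, 39.9 and 40.2 CPM under DMSO and 41.6, 38.9 and 37.4 CPM under AZD7762, a log2 ratio of -0.060. In both genes the groups overlapped. Exons on the other strand cover 16.2% of those of FBXO22. TRIM22 had 1 to 4 counts in a library and was not tested.

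In 5 of the 27 members tested, all samples of one group lay beyond those of the other, namely DDB2 upwards and TP53INP1, RRM2B, FAS and CMBL downwards. Among all genes tested this held for 15.0%, in 6.79% upwards and in 8.25% downwards, so that the share in the set lay near the background. Of the 9 tested members that held a match to the consensus, 3 were higher and the median log2 ratio was -0.083. The values of these 9 ran from -0.355 to 0.15. The 18 with no match or no window had a median of -0.0097. The search left out sites with a spacer or a changed centre, so these 18 may hold sites too, and the difference was not tested.

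Levels between members were compared per exon length, as FPKM (CPM per kilobase of the union of annotated exons, which is long for genes with many transcripts). With DMSO the highest FPKM were those of TP53I11 (46.0 ± 2.57), FUCA1 (41.8 ± 2.08), CCNG1 (32.6 ± 2.16) and TP53INP1 (23.9 ± 0.818, SD, n = 3). The samples of the first 2 overlapped, and so did those of MDM2 and its neighbour XPC further down. TP53I11 lay at percentile 95 of the genes tested. MDM2 and CDKN1A lay in the middle of the set with 10.6 ± 0.617 and 8.40 ± 0.404 FPKM, at percentiles 74.2 and 68.6. The death receptors TNFRSF10B and FAS had 0.362 ± 0.0598 and 0.257 ± 0.0495 FPKM, at percentiles 11.4 and 8.31. The set therefore spanned nearly the whole range of expression in these cells, and its order was led by the same 4 genes with AZD7762, at 47.6 ± 2.05, 43.8 ± 3.25, 33.6 ± 3.01 and 21.4 ± 1.15 FPKM.

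Other p53 targets were read from the same fit. Of 40 such genes, 34 were tested, 20 were higher and 14 lower, and the median log2 ratio was 0.034, beside 52.4% higher and a median of 0.0076 over all genes. Of the 34, 1 was called, where 0.708% of all genes were. That gene was RAP2B, a small GTPase of the RAS family, with 29.6, 28.0 and 27.0 CPM under DMSO and 38.1, 38.5 and 35.3 CPM under AZD7762. All AZD7762 samples lay above the DMSO samples, at 37.3 ± 1.77 against 28.2 ± 1.31 CPM, and RAP2B rose by a log2 ratio of 0.40 (standard error 0.0710, edgeR, adjusted p = 0.0180). The call was lost without DMSO replicate 2 (edgeR, adjusted p = 0.0909), AZD7762 replicate 1 (0.134) or AZD7762 replicate 2 (0.102). PLK3, a polo-like kinase gene, had the lowest value of this list, with 6.03, 4.63 and 6.47 CPM under DMSO and 3.02, 3.66 and 3.56 CPM under AZD7762. Its log2 ratio was -0.74 and its adjusted p of 0.0558 in edgeR's test was just above the threshold, which it passed in 8 of 17 alternatives. GDF15, a stress hormone gene often used as a p53 readout, had 0.257 to 0.676 CPM over the 6 samples and an adjusted p of 0.932 in edgeR's test.

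From the BTG, BCL2, GADD45 and SESN2 families, 7 genes were listed as p53 targets. They held 3 calls, 1 higher and 2 lower, where 0.708% of all genes were called. The lists were drawn up with earlier results of these data known, so this share cannot be read as an enrichment. BTG2, an antiproliferative gene that is also an immediate early gene, had 107.7, 91.4 and 94.0 CPM under DMSO and 520.9, 605.3 and 533.7 CPM under AZD7762. The groups were far apart, with a log2 ratio of 2.50 (standard error 0.0823, edgeR, adjusted p = 4.04e-09). A match to the consensus was held by 3 of the 7 genes (42.9%), which were likewise picked as p53 targets. Those of BTG2 and PMAIP1 lay upstream with 2 mismatches, and that of GADD45A, which was not called, in intron 3 with 1 mismatch. The match of BTG2 is shown for the gene with the largest change of the 7.
BTG2, upstream, chr1:203272770-203272789, plus strand: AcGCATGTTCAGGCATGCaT
PMAIP1, which encodes the BH3-only protein NOXA, fell from 91.0, 95.4 and 91.3 CPM under DMSO to 72.9, 72.6 and 66.4 CPM under AZD7762, a log2 ratio of -0.39 (standard error 0.0609, edgeR, adjusted p = 0.00659). BCL2L11, the gene of the BH3-only protein BIM, had 92.0, 88.9 and 92.7 CPM under DMSO and 70.1, 77.7 and 73.8 CPM under AZD7762, a log2 ratio of -0.30 (edgeR, adjusted p = 0.0391). Its groups did not overlap, but its call was lost in each of the 6 fits that left out a sample, with adjusted p between 0.0516 and 0.211 in edgeR's test. BCL2L11 held no match to the consensus at these settings, and whether p53 controls it in these cells was not tested. BBC3, the gene of the BH3-only protein PUMA, had the lowest value of these 7, a log2 ratio of -0.48 from 0.834 ± 0.154 to 0.584 ± 0.146 CPM (edgeR, adjusted p = 0.642). BAX, GADD45A and SESN2, the other 3, were not called, at log2 ratios of 0.079, 0.11 and -0.046.

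**Figure D4:**
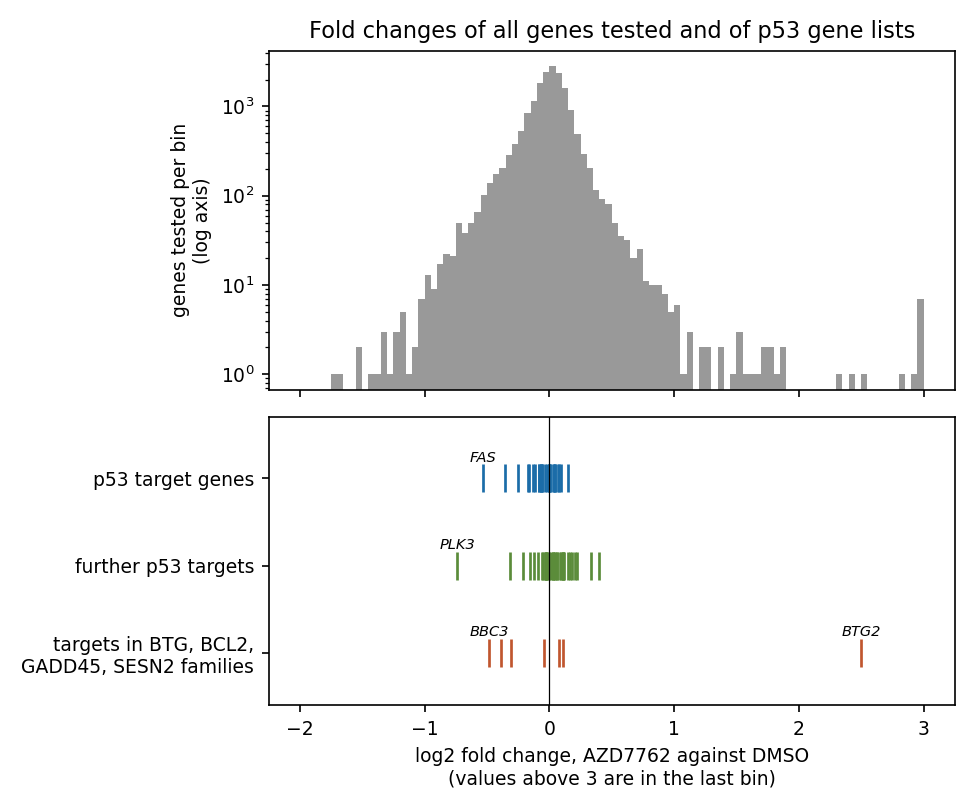
Upper panel: number of genes (log axis) per bin of log2 fold change of AZD7762 against DMSO for all 17649 genes tested. Lower panel: the same axis with 1 tick per tested gene for the 27 p53 target genes, the 34 further targets and the 7 genes listed as targets from other families. The ticks of the 27 genes lie within -0.53 and 0.15, whereas BTG2 lies at 2.50.

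The genes that control p53 were looked at for the input of the pathway. Of 21 matched genes, 20 were tested and 0 were called in edgeR's test, as with DESeq2 and limma-voom, where 0.708% of all genes were called. An unadjusted p under 0.05 was found for 2 of the 20, where 9.68% of all genes had one. All AZD7762 samples lay above the DMSO samples in 1 of the 20, CDKN2A, and below them in 2, beside 6.79% and 8.25% of all genes. CDKN2A, which encodes the MDM2 inhibitor ARF as well as p16, had 98.4 ± 8.13 CPM under DMSO and 110 ± 3.37 CPM under AZD7762. Its log2 ratio was the highest of the list, 0.16 (interval 0.016 to 0.31, edgeR, unadjusted p = 0.0324, adjusted p = 0.463). MDM4, the partner of MDM2, had the lowest, -0.21, from 22.6, 23.3 and 23.0 CPM under DMSO to 16.2, 19.8 and 23.9 CPM under AZD7762, where AZD7762 replicate 3 was the highest of all samples. The value for MDM4 was -0.079 without AZD7762 replicate 1 and -0.35 without AZD7762 replicate 3. ATM and CHEK1 had log2 ratios of -0.14 and -0.10 and CHEK2 one of 0.044, none of them called. The RB family genes RB1, RBL1 and RBL2, whose proteins large T antigen also binds, had 0.0087, -0.048 and -0.070. Genes on the other strand cover 15.3% of the exons of CDKN2A, 13.4% of those of CHEK1 and 16.4% of those of RBL2.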

How the data were processed

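The deposited values are raw counts per gene, 1 file per sample. Per the study's methods and the submitters' processing notes, the authors checked reads with FastQC 0.10.1, trimmed them with cutadapt 1.18, aligned them to GRCh37 and counted them with HTSeq-count. The labels name an unstranded and a stranded TruSeq kit without saying which library used which. The aligner, the strand setting and the annotation release are not given in the sources used here.

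Symbols, positions, exon lengths and sequence came from a GENCODE annotation mapped to GRCh37 and its genome, which matched 58646 of 60671 identifiers. The other 2025 held 0.153% of the counts. Since they are absent from this annotation, the counting may have used another release or build, and the positions, exon lengths, overlaps and FPKM printed rest on the annotation used here. Members were matched by symbol.

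The fit used edgeR 4.0.16 under R 4.3.3: filterByExpr left 17649 genes, TMM factors scaled the libraries, and AZD7762 was compared with DMSO by the two-sided quasi-likelihood test, with no covariate beside treatment, Benjamini-Hochberg adjustment over all genes and a threshold of 0.05. Standard errors are the size of the log2 fold change divided by the root of F, and intervals are at 95%. Samples were grouped by their titles. Alternatives used limma 3.58.1, DESeq2 1.42.0, other scalings and filters, thinning, GC and length trends as offsets, and fits without each sample. The procedures were tested on simulated counts and on planted sites.

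The members and lists were chosen with earlier results of these data known. Values in every sample are given for members with an unadjusted p under 0.05, CDKN1A, MDM2, and the highest and lowest member of each role. CMBL, TNFRSF10B, GDF15 and the RB family were added after their values were seen. Replicates of a group differed by more than sampling noise (chi-square per gene 4.84 to 9.59). The values of 1 regulator and the letters of some matches to the consensus are not reported here.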

Additional observations from a re-analysis of the deposited data

How the results depend on the processing

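No member was called under any of 17 alternatives, over 458 pairs of a member and an alternative, and 18 of the 27 members kept the sign of their log2 fold change in all of theirs. SPATA18 could not be fitted with at least 10 counts in every sample. The number of genes called in all was 125, and became 330 when thinly counted genes were kept, 267 under the likelihood ratio test and 224 after GC and length trends were removed. The cause was not tested. With each sample dropped in turn there were from 77 genes, when AZD7762 replicate 1 was absent, to 168, when DMSO replicate 3 was, 0 to 2 members with an unadjusted p under 0.05, 0 to 1 further targets called and 2 of the 7 family genes called in each fit. Further targets called numbered 2, RAP2B and PLK3, with upper-quartile factors, library totals, no filter, DESeq2, the likelihood ratio test, GC and length trends and the replicate block. The median over the members was -0.068 with library totals alone, a setting that moved the median of all genes to -0.028.

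With the replicate number as a block, 378 genes were called and 0 members. No source says that a number marks a shared culture or day. Samples numbered 1, 2 and 3 had correlations of deviations of 0.0533, 0.124 and 0.21, all above 0. DMSO replicates 2 and 3 correlated best with their own number, whereas DMSO replicate 1 did so with AZD7762 replicate 2 (0.175), so the pairing was not taken as shown.

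The log2 fold change changed sign in 9 members and CHEK2. XPC became -0.010 with upper-quartile factors and -0.028 with library totals, and PPM1D -0.0093 with library totals. POLK became -0.00017 with RLE factors, -0.015 with upper-quartile factors, -0.033 with library totals, -0.0015 without a filter, -0.0025 with at least 10 counts in every sample, -0.0012 with limma-voom and -0.012 after thinning. SPATA18 became -0.017 after thinning. RPS27L became 0.00031 with the replicate block, 0.050 with GC and length trends taken out and 0.020 after thinning, and FBXO22 0.061 with those trends taken out. Leaving out 1 sample at a time gave ranges of -0.025 to 0.033 for XPC, -0.13 to 0.13 for FDXR, -0.060 to 0.072 for PPM1D, -0.014 to 0.11 for CCNG1, -0.027 to 0.040 for POLK, -0.012 to 0.42 for SPATA18, -0.078 to 0.032 for TRIAP1, -0.064 to 0.042 for RPS27L, -0.042 to 0.042 for FBXO22 and -0.016 to 0.089 for CHEK2. Depth limits FAS, TNFRSF10B, PHLDA3, SPATA18, EDA2R, TRIM22 and PLK5, which had at most 58 counts in a library.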
